A study of Mus musculus with 11 samples.

Results

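Alveolar macrophages from newborn male mice that had breathed 95% oxygen (hyperoxia) were compared with those of males kept in normoxia, over all genes of a bulk RNA-seq count table. The members are the libraries labelled male, 5 of the 11 in the series: hyperoxia male replicates 2 and 3 (HM2 and HM3) and normoxia male replicates 1, 2 and 3 (NM1, NM2 and NM3). All pups were wild-type C57BL/6. Exposed pups were in 95% oxygen from postnatal day 1 through day 5, and lungs of both groups were taken on day 7, when macrophages were sorted from the homogenate by flow cytometry. The sources used here do not give the gas between day 5 and day 7, the surface markers of the sort, or whether a replicate is 1 pup or a pool, so p-values reflect only how far the libraries differ, and that difference may be technical. The question put by the series' title is how sex bears on neonatal alveolar macrophages, and the hyperoxic response of males is 1 arm of it.

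Alveolar macrophages live on the air side of the lung, where they take up inhaled particles and break down spent surfactant, a film made mostly of phospholipid. Their precursors settle in the lung around birth and mature under the cytokine GM-CSF, which turns on the nuclear receptor PPAR gamma and with it genes for fatty acid uptake, storage and oxidation. They keep their numbers by dividing in place. High oxygen given to newborn rodents is a common model of the lung injury of preterm infants who need oxygen.

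Total counts of the 5 libraries ran from 18087948 (NM3) to 26757489 (NM2). NM3 stood apart: 35530 genes had at least 1 count there, against 26856 to 30173 in the other 4, and the summed level of odorant, vomeronasal and taste receptor genes was 300.3 CPM against 54.2 to 80.0 CPM. Levels are given as CPM, a gene's counts as a share of the library size after scaling by TMM (trimmed mean of M-values). A count of 3, taken as the floor of detection, corresponds to 0.106 to 0.164 CPM and covers counting error only. The labelled cell type fitted its markers: Mrc1, the mannose receptor, stood at 812 to 1564.5 CPM, Itgax (CD11c) at 320 to 660 CPM and Siglecf, a sialic acid receptor of these cells, at 192 to 344 CPM in the 5 libraries. Ly6g, which defines neutrophils, had 0 counts in all 5, and Ly6c2 of classical monocytes stood at 0.0381 to 0.930 CPM. Other members of the neutrophil and monocyte marker lists were mixed. Some were well above the floor, among them Ccr2 at 15.3 to 46.6 CPM, Ace at 51.1 to 58.5 CPM and Mmp8 at 6.46 to 24.3 CPM. Others lay near or under it, such as S100a9 (2 to 8 counts), Elane (0 to 6 counts) and Chil5 (0 to 2 counts). Counts were high enough for testing in 5 of 12 neutrophil and 10 of 11 monocyte markers. Y-linked Ddx3y (52.4 to 75.0 CPM) and Xist (0.103 to 1.42 CPM) matched the male labels.

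Of 17077 genes tested, 34 (0.199%) differed between hyperoxia and normoxia, with 19 higher (0.111%) and 15 lower (0.0878%) in hyperoxia. The test was edgeR's quasi-likelihood test on these 5 libraries alone, with Benjamini-Hochberg adjusted p under 0.05, and "rose" and "fell" below are kept for genes past it. A value with ± is a log2 fold change, hyperoxia minus normoxia, with its standard error. With upper quartile scaling in place of TMM the split was 2 higher and 8 lower. In each of the 34 genes both HM libraries lay on the same side of all NM libraries, as they did in 10.6% (above) and 8.54% (below) of all genes tested. The smallest change among the 34 was 1.12 on the log2 scale. Without NM3, which leaves 2 libraries a side, 3 of the 34 passed (0.0191% of all genes tested there), namely Fabp1 and 2 identifiers without a symbol, and no further gene did. All 34 kept their direction there, which groups without overlap leave little room to change, so this agreement is not a check. Of them 14 had a larger absolute log2 fold change, and their adjusted p ran from 0.0109 to 0.508 (edgeR quasi-likelihood, median 0.266). Of the 34, 20 passed without NM1, 29 without NM2, 14 without HM2 and 13 without HM3. With 2 against 3 libraries a two-sided exact permutation test, taken as 2 times the smaller tail, cannot go below 0.2 for a single value, so each call below rests on a spread that is shared across genes.

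**Figure D1:**
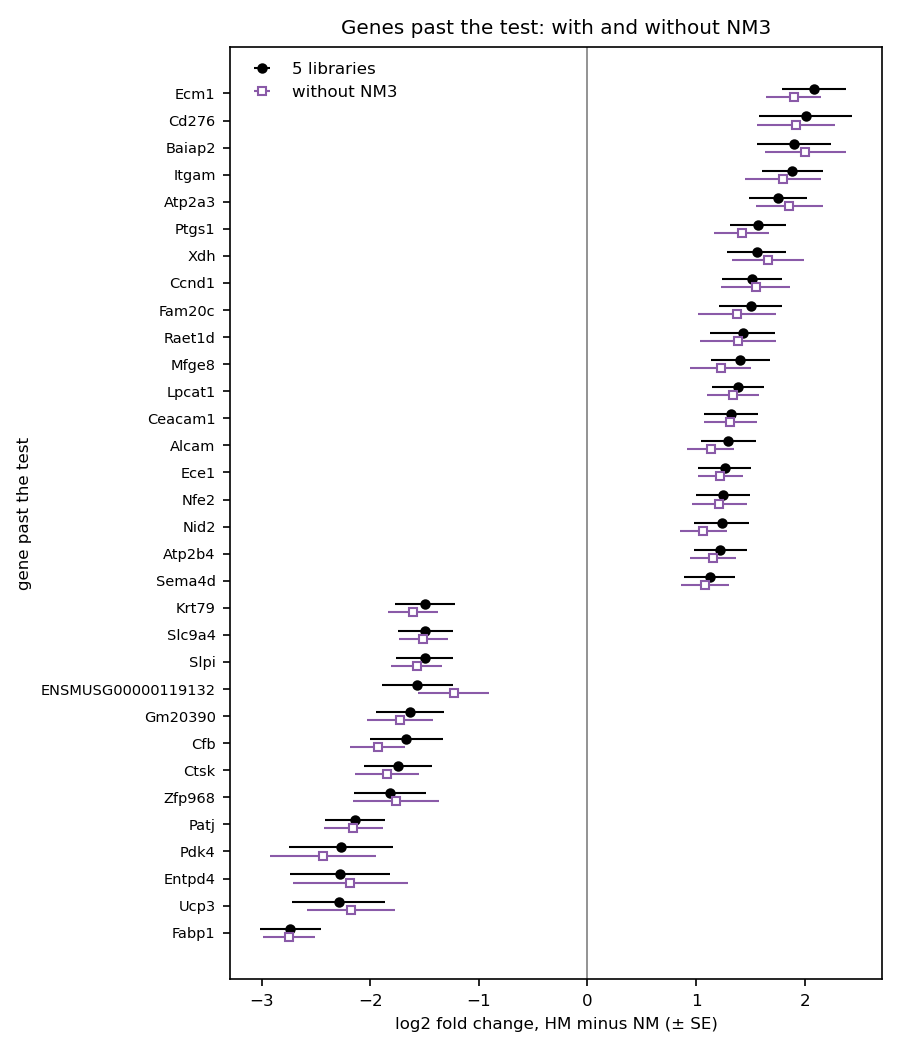
Log2 fold change (HM minus NM, x axis) of 32 of the 34 genes past the test (y axis), with all 5 libraries (filled circles) and without NM3 (open squares); bars are standard errors, and the 2 identifiers with no count in either HM library are left out. Every gene lies on the same side of 0 in both fits, which groups without overlap leave little room to change. Values run from -2.73 for Fabp1 to 2.08 for Ecm1 with all 5.

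Genes of fatty acid handling were among the genes that fell. Fabp1, which carries fatty acids in the cytosol, stood at 65.0, 55.3 and 58.2 CPM in NM1, NM2 and NM3 and at 9.85 and 8.01 CPM in HM2 and HM3. The HM libraries were far below the NM ones and close to each other, and the log2 fold change was -2.73 ± 0.28 (adjusted p = 2.05e-06, edgeR quasi-likelihood). It was the 1 gene with a symbol that kept its call whichever library was dropped, with a log2 fold change of -2.75 without NM3. Ucp3, a carrier of the inner mitochondrial membrane that rises with fatty acid supply, stood at 4.62, 8.30 and 8.04 CPM in NM1, NM2 and NM3 and at 1.26 and 1.59 CPM in HM2 and HM3. It fell by 2.29 on the log2 scale (adjusted p = 0.0126), from low levels with no overlap of the groups. Pdk4, the kinase that turns off pyruvate dehydrogenase and so spares glucose when fat is burnt, stood at 5.50, 8.83 and 4.76 CPM in NM1, NM2 and NM3 and at 0.725 and 1.91 CPM in HM2 and HM3. Its log2 fold change was -2.27 ± 0.48 (adjusted p = 0.0374), and the HM libraries were the lowest here too, although they differed from each other by more than those of Ucp3.

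Fabp1, Ucp3 and Pdk4 are known PPAR target genes, and the 250 bases before their RefSeq start sites (build GRCm38.p6) are shown because these 3 members fell together. Capitals mark AGGTCA, the core element that nuclear receptors such as PPAR bind as a spaced pair, on either strand (TGACCT where it lies on the other one). The windows are chr6:71199629-71199878 on the plus strand for Fabp1, chr7:100472741-100472990 on the plus strand for Ucp3 and chr6:5496279-5496528 on the minus strand for Pdk4.
Fabp1: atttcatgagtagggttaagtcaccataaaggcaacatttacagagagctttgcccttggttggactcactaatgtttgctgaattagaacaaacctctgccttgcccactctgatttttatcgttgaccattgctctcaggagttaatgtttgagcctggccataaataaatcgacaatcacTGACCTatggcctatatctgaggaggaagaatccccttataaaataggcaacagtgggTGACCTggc
Ucp3: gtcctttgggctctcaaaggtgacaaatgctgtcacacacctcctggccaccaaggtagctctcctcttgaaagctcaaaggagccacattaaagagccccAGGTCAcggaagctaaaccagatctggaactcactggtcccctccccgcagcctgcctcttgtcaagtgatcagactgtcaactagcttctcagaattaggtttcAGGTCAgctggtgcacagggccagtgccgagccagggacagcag
Pdk4: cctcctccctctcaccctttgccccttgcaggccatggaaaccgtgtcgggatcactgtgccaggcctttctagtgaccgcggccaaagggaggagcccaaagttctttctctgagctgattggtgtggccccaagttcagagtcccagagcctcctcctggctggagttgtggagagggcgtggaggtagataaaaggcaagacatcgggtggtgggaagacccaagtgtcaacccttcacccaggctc
Fabp1 held AGGTCA 2 times, its first base 67 and 9 bases before the start, and Ucp3 held it 2 times, at 149 and 44 bases. Pdk4 held none in this window. Of 27025 genes with a promoter in the table, 13.8% had at least 1 AGGTCA in the same window, and of the 22 promoters found for the 29 tested genes of fatty acid oxidation and PPAR targets, 7 did (31.8%). A match of letters is a description and not a binding site.

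Most other fuel genes had smaller differences. In the list of fatty acid oxidation genes and PPAR targets, 3 of 29 tested members fell (Fabp1, Ucp3 and Pdk4) and none rose. Both HM libraries lay below all NM libraries in 8 (8.54% of all genes tested) and above in 1 (10.6%). The list median was -0.21, against -0.03 over all genes tested, and -0.28 without NM3. Fabp4, a second fatty acid carrier, stood at 27.4, 16.1 and 18.9 CPM in NM1, NM2 and NM3 and at 5.31 and 11.1 CPM in HM2 and HM3, without overlap, and did not pass (-1.34 ± 0.31, adjusted p = 0.0839, edgeR quasi-likelihood). The scavenger receptor and fatty acid transporter Cd36 stood at 561, 451 and 421 CPM in NM1, NM2 and NM3 and at 345 and 288 CPM in HM2 and HM3 (-0.59 ± 0.32, adjusted p = 0.951). Acot1 (-0.61 ± 0.27) and Acot2 (-0.46 ± 0.24), which split acyl-CoA, had values below 0 and did not pass either. Among genes of lipid droplets and triglyceride synthesis none of 23 passed, with a median of -0.26 and -0.38 without NM3. Cidec, which lets droplets fuse, came nearest: it stood at 96.7, 130.2 and 92.6 CPM in NM1, NM2 and NM3 and at 45.8 and 43.0 CPM in HM2 and HM3 (-1.26 ± 0.28, adjusted p = 0.0642). G0s2, an inhibitor of triglyceride lipase, had -0.86 ± 0.29 with overlapping groups, Gpd1, which makes glycerol phosphate, -1.49 ± 0.62, and the droplet coat gene Plin1 -0.56 ± 0.26.

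Genes that make fatty acids had mostly values above 0. None of 15 passed, and 13 had a log2 fold change above 0 (47.1% of all genes tested did). In 7 both HM libraries lay above all NM libraries (10.6% of all genes tested). Their median was 0.43, and 0.50 without NM3. Fads1, a desaturase, stood at 9.86, 10.5 and 5.74 CPM in NM1, NM2 and NM3 and at 18.3 and 16.2 CPM in HM2 and HM3 (0.98 ± 0.27, adjusted p = 0.183, edgeR quasi-likelihood). Pcx, pyruvate carboxylase, stood at 1.13, 1.41 and 1.59 CPM in NM1, NM2 and NM3 and at 4.62 and 4.45 CPM in HM2 and HM3 (1.72 ± 0.50, adjusted p = 0.243). For the desaturase Scd2 the log2 fold change was 0.91 ± 0.27 and for fatty acid synthase, Fasn, it was 0.72 ± 0.28, both without overlap of the groups. Cholesterol synthesis genes had a median of 0.17, which was 0.05 without NM3, and genes of cholesterol efflux and LXR targets one of 0.06 and -0.09, with no member past the test in either list of 23 and 11.

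Enzymes of membrane lipid and of eicosanoids held 1 gene each that rose. Lpcat1, which remakes the dipalmitoyl phosphatidylcholine of surfactant, stood at 15.3, 10.9 and 11.9 CPM in NM1, NM2 and NM3 and at 33.2 and 33.0 CPM in HM2 and HM3. The HM libraries were nearly equal and well above the NM ones (1.38 ± 0.24, adjusted p = 0.00751, edgeR quasi-likelihood). It was 1 of 13 phospholipid remodelling genes, whose median was 0.32, and the next by p, Lpgat1, had 0.54 ± 0.24 and did not pass. Ptgs1, cyclooxygenase 1, which starts prostaglandin synthesis, stood at 19.2, 14.1 and 11.6 CPM in NM1, NM2 and NM3 and at 38.4 and 50.4 CPM in HM2 and HM3 (1.57 ± 0.26, adjusted p = 0.00418). The other 12 tested genes of eicosanoid synthesis did not pass, and the list median was -0.06. Ptgr1, which inactivates prostaglandins and leukotriene B4, had 0.71 ± 0.26, and Alox5, 5-lipoxygenase, 0.42 ± 0.29.

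**Figure D2:**
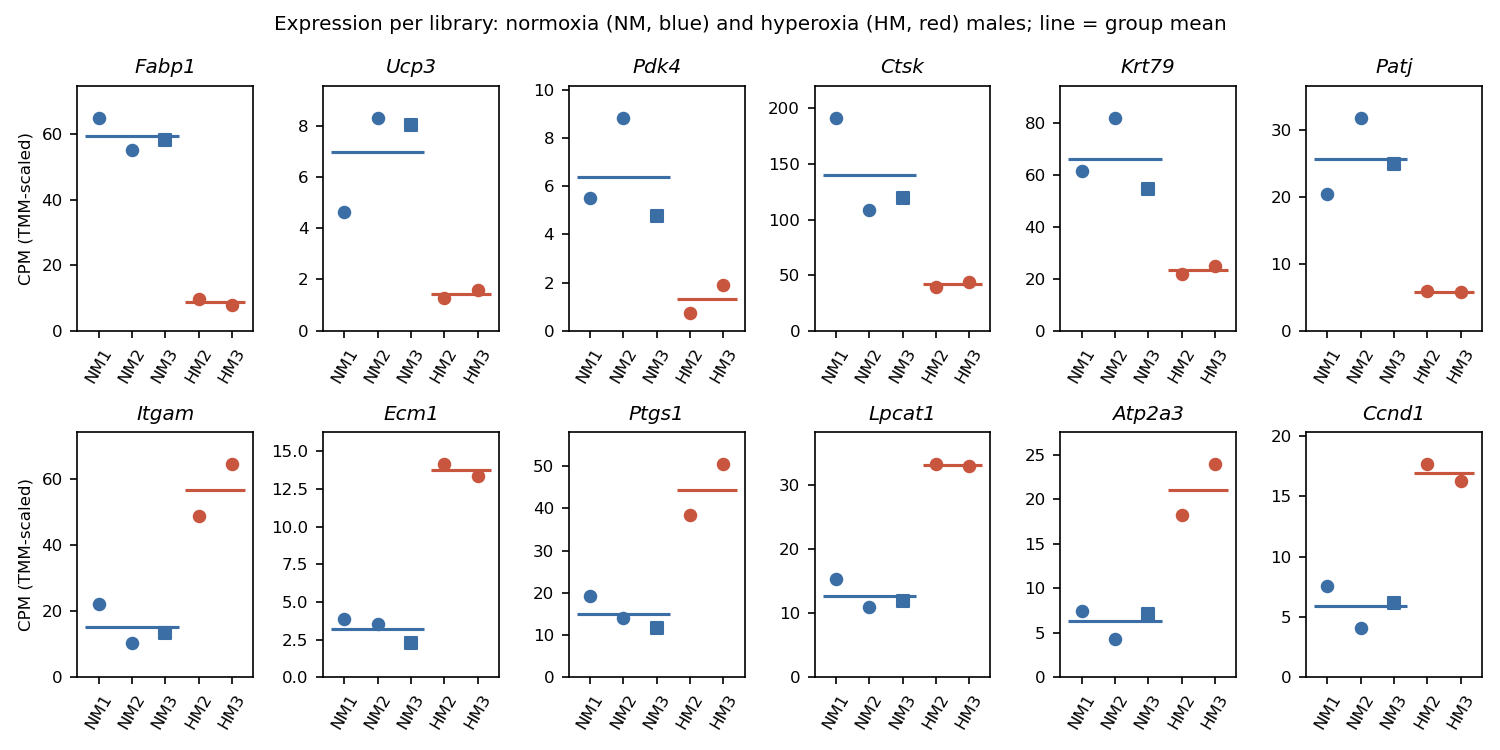
TMM-scaled CPM (y axis, linear from 0) of 12 genes past the test in each normoxia (NM, blue) and hyperoxia (HM, red) male library (x axis); lines are group means and the square is NM3. In all 12 panels the HM points lie on 1 side of all NM points, as for Fabp1 at 8.01 and 9.85 CPM against 55.3 to 65.0 CPM.

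Of the alveolar macrophage identity genes 3 of 32 fell, Fabp1, Ctsk and Krt79, and none rose. Ctsk, cathepsin K, a lysosomal protease that cuts collagen, stood at 191, 109 and 119 CPM in NM1, NM2 and NM3 and at 39.5 and 44.0 CPM in HM2 and HM3 (-1.74 ± 0.31, adjusted p = 0.00865, edgeR quasi-likelihood). NM1 was the highest for Ctsk, and the other NM libraries were still above both HM libraries. Krt79, a keratin that marks these macrophages, stood at 61.5, 82.0 and 54.6 CPM in NM1, NM2 and NM3 and at 21.8 and 25.1 CPM in HM2 and HM3 (-1.49 ± 0.28, adjusted p = 0.0116). The list median was -0.17, with 12 of 32 members above 0. Both HM libraries lay below all NM libraries in 10 (8.54% of all genes tested) and above in 1 (10.6%). An unadjusted p under 0.05 with a value below 0 was found for 8, against 2.51% of all genes tested. This list, like the others, was written with earlier results of these data known, so such shares are a description. Without NM3 the median was -0.33, with 3 of 32 above 0 (51.1% of all genes there) and 10 with an unadjusted p under 0.05 below 0 (2.12% of all genes there). Ear1, an eosinophil-associated ribonuclease of these cells, stood at 274, 299 and 246 CPM in NM1, NM2 and NM3 and at 145 and 133 CPM in HM2 and HM3 (-0.98 ± 0.30, adjusted p = 0.281), and E-cadherin, Cdh1, at 231, 203 and 107 CPM in NM1, NM2 and NM3 and at 292 and 372 CPM in HM2 and HM3 (0.88 ± 0.32, adjusted p = 0.506), so neither passed. Siglecf, used above as a marker of these cells, was lower in both HM libraries than in all NM libraries and did not pass. It stood at 326, 344 and 289 CPM in NM1, NM2 and NM3 and at 208 and 192 CPM in HM2 and HM3 (-0.68 ± 0.30, adjusted p = 0.755, edgeR quasi-likelihood). The summed level of the list was 12427 to 18016 CPM in NM and 14071 and 14513 CPM in HM libraries. NM3 was the lowest library for many macrophage genes: its median over the identity list was 0.29 below the 5-library mean on the log2 scale, against 0.24 and 0.32 above it in NM1 and NM2.

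Further genes that fell belong to several functions. Patj, a scaffold of epithelial cell polarity, stood at 20.4, 31.8 and 24.8 CPM in NM1, NM2 and NM3 and at 5.88 and 5.79 CPM in HM2 and HM3. The HM libraries were nearly equal and below all NM libraries (-2.14 ± 0.27, adjusted p = 0.000118, edgeR quasi-likelihood). Epithelial markers summed to 49.6 to 110 CPM in NM and 159 and 87.3 CPM in HM2 and HM3, so the groups overlapped there, and the part of other cell types in the change of Patj was not tested. Slc9a4, a sodium-proton exchanger, stood at 23.7, 26.1 and 23.7 CPM in NM1, NM2 and NM3 and at 9.39 and 8.01 CPM in HM2 and HM3 (-1.49 ± 0.25, adjusted p = 0.00589). Slpi, a secreted inhibitor of leukocyte proteases, stood at 19.3, 21.7 and 17.2 CPM in NM1, NM2 and NM3 and at 6.34 and 7.41 CPM in HM2 and HM3 (-1.50 ± 0.26, adjusted p = 0.00751). Both genes had NM libraries within a narrow range and HM libraries well below it. Cfb, factor B of the alternative complement pathway, stood at 157, 200.5 and 87.4 CPM in NM1, NM2 and NM3 and at 39.1 and 54.3 CPM in HM2 and HM3 (-1.67 ± 0.34, adjusted p = 0.0238).

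Of the integrin and leukocyte adhesion list Itgam and Alcam rose. Itgam, the integrin alpha chain CD11b that pairs with CD18 as complement receptor 3, stood at 22.2, 10.4 and 13.5 CPM in NM1, NM2 and NM3 and at 48.9 and 64.5 CPM in HM2 and HM3. The lower HM library was above the highest NM library by a wide margin (1.89 ± 0.28, adjusted p = 0.00148, edgeR quasi-likelihood). Monocytes and neutrophils carry CD11b as well, and summed monocyte markers stood at 153 to 194 CPM in NM and 219 and 228 CPM in HM libraries. Of 10 tested monocyte markers 4 were higher without overlap (10.6% of all genes tested), and none passed the test. Summed neutrophil markers stood at 14.8 to 28.9 CPM in NM and 38.6 and 39.2 CPM in HM libraries, of which Mmp8 made up 6.46 to 16.5 CPM and 21.8 and 24.3 CPM, while Ly6g had 0 counts in all 5 libraries, which allows up to 3 counts in each. The part of these markers in the change of Itgam was not tested. Alcam, an adhesion molecule of the immunoglobulin family, stood at 16.0, 16.6 and 10.9 CPM in NM1, NM2 and NM3 and at 32.5 and 38.8 CPM in HM2 and HM3 (1.30 ± 0.25, adjusted p = 0.0151). These were 2 of 19 tested members and none fell, with a median of 0.22, and Itga4 (0.75 ± 0.27) and Itga5 (0.77 ± 0.28), integrin chains that bind fibronectin, did not pass.

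Ecm1, a glycoprotein released into the extracellular matrix, had 3.85, 3.54 and 2.30 CPM in NM1, NM2 and NM3 and 14.1 and 13.4 CPM in HM2 and HM3. Its 2 HM values were nearly equal, and its rise was the largest among the genes past the test (2.08 ± 0.30, adjusted p = 0.000695, edgeR quasi-likelihood). Nid2, a nidogen of basement membranes, stood at 13.4, 16.4 and 9.74 CPM in NM1, NM2 and NM3 and at 30.3 and 31.8 CPM in HM2 and HM3 (1.24 ± 0.25, adjusted p = 0.0256). Fam20c, the kinase that phosphorylates secreted proteins, stood at 11.9, 5.18 and 6.29 CPM in NM1, NM2 and NM3 and at 21.2 and 22.8 CPM in HM2 and HM3 (1.50 ± 0.29, adjusted p = 0.0184). Ecm1 rose and Ctsk fell among 16 matrix protease and inhibitor genes, whose median was 0.08. The membrane protease St14 (1.24 ± 0.38) and the collagenase Mmp8 (1.22 ± 0.34) did not pass.

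Surface receptors and ligands that rose included members of the B7 and the CEACAM families. Cd276, the B7 family ligand B7-H3, stood at 1.49, 2.02 and 1.42 CPM in NM1, NM2 and NM3 and at 5.73 and 7.59 CPM in HM2 and HM3 (2.01 ± 0.43, adjusted p = 0.0394, edgeR quasi-likelihood). It was the 1 of 11 tested B7 and TREM family genes past the test. Both HM libraries lay above all NM libraries in 8 of the 11 (10.6% of all genes tested). The list median was 0.58, and 0.50 without NM3. Of the others, Treml2 stood at 1.95, 0.990 and 0.766 CPM in NM1, NM2 and NM3 and at 3.25 and 5.54 CPM in HM2 and HM3 (1.83 ± 0.55, adjusted p = 0.261), and Trem2, a lipid receptor of macrophages, had 0.65 ± 0.27. Ceacam1, an inhibitory adhesion receptor, stood at 16.3, 21.9 and 18.7 CPM in NM1, NM2 and NM3 and at 41.0 and 53.8 CPM in HM2 and HM3 (1.32 ± 0.25, adjusted p = 0.0131), and its reads may be shared with its near copy Ceacam2. Raet1d, a ligand of the NK cell receptor NKG2D, stood at 7.19, 3.58 and 4.81 CPM in NM1, NM2 and NM3 and at 15.8 and 12.1 CPM in HM2 and HM3 (1.43 ± 0.30, adjusted p = 0.0328), and its reads may be shared with near-identical Raet1 genes. Sema4d, a semaphorin, rose as well (1.12 ± 0.24, adjusted p = 0.0367), and lost its call with any 1 library left out.

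Calcium pumps and an actin adaptor also rose. Atp2a3, which pumps calcium into the endoplasmic reticulum, stood at 7.40, 4.30 and 7.11 CPM in NM1, NM2 and NM3 and at 18.2 and 23.9 CPM in HM2 and HM3 (1.75 ± 0.27, adjusted p = 0.00181, edgeR quasi-likelihood). Atp2b4, which pumps calcium out of the cell, stood at 22.1, 25.5 and 20.2 CPM in NM1, NM2 and NM3 and at 50.6 and 54.9 CPM in HM2 and HM3 (1.22 ± 0.24, adjusted p = 0.0206). These were 2 of 16 genes of calcium stores and entry, whose median was 0.17. Itpr3, a channel that releases stored calcium, stood at 8.47, 7.35 and 10.1 CPM in NM1, NM2 and NM3 and at 14.9 and 16.5 CPM in HM2 and HM3 and did not pass (0.86 ± 0.25, adjusted p = 0.247). Baiap2, an adaptor of the actin skeleton at the cell edge, stood at 2.67, 2.82 and 3.34 CPM in NM1, NM2 and NM3 and at 7.29 and 14.7 CPM in HM2 and HM3. The NM values lay close together, and HM3 was well above HM2 (1.90 ± 0.34, adjusted p = 0.00865).

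Among the other genes that rose, Xdh, xanthine dehydrogenase, which makes urate and can release reactive oxygen, stood at 9.25, 6.17 and 9.41 CPM in NM1, NM2 and NM3 and at 17.6 and 31.0 CPM in HM2 and HM3 (1.56 ± 0.27, adjusted p = 0.00751, edgeR quasi-likelihood). Mfge8, a bridge between dying cells and the integrins of phagocytes, stood at 23.5, 14.1 and 12.0 CPM in NM1, NM2 and NM3 and at 39.5 and 48.1 CPM in HM2 and HM3 (1.41 ± 0.27, adjusted p = 0.0151). Ece1, which cuts endothelin to its active form, stood at 22.2, 22.3 and 20.3 CPM in NM1, NM2 and NM3 and at 49.3 and 54.3 CPM in HM2 and HM3 (1.26 ± 0.24, adjusted p = 0.0140). Nfe2, a transcription factor related to NRF2, stood at 10.4, 10.4 and 9.57 CPM in NM1, NM2 and NM3 and at 28.6 and 19.4 CPM in HM2 and HM3 (1.25 ± 0.25, adjusted p = 0.0193). All 4 had groups that did not overlap. The scavenger receptor Msr1 stood at 40.0, 26.3 and 26.7 CPM in NM1, NM2 and NM3 and at 63.3 and 77.7 CPM in HM2 and HM3 and missed the threshold (1.19 ± 0.26, adjusted p = 0.0546), as did Pstpip1 (1.20 ± 0.26), an adaptor of the actin skeleton, and the creatine transporter Slc6a8 (1.58 ± 0.35), with the same adjusted p. The rest of the 20 genes next by p, none past the test, had higher values in Sesn3, Ndc1, Gpsm2, Trp53i11, Ldhb, Rab7b and Mir8109 and lower values in Igflr1, Snord21, Clec2d, Cd2, Cldn1, Mcoln3, Ltbp2 and ENSMUSG00000119892.

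Most cell cycle genes had higher values in hyperoxia, and 1 passed the test. Ccnd1, cyclin D1, which starts the passage from G1 to S phase, stood at 7.60, 4.07 and 6.13 CPM in NM1, NM2 and NM3 and at 17.6 and 16.2 CPM in HM2 and HM3 (1.52 ± 0.28, adjusted p = 0.0102, edgeR quasi-likelihood). It was the 1 of 21 G1 genes past the test, and Ccne1, cyclin E1, stood next at 13.7, 12.3 and 10.8 CPM in NM1, NM2 and NM3 and at 22.4 and 22.3 CPM in HM2 and HM3 (0.86 ± 0.24, adjusted p = 0.184). The G1 list mixes cyclins and their kinases with inhibitors of these kinases. Of its members 17 had a value above 0 (47.1% of all genes tested) and 4 below, the lowest at -0.87. The G1 median was 0.30, and 0.20 without NM3. Of 35 mitosis genes none passed, and all 35 had a log2 fold change above 0, with a median of 0.76. Both HM libraries lay above all NM libraries in 32 of them, against 10.6% of all genes tested, and 30 had an unadjusted p under 0.05 with a value above 0, against 3.34%. Without NM3 the median was 0.61, with 35 of 35 above 0 and 25 with an unadjusted p under 0.05 (4.03% of all genes tested there). Both HM libraries lay above both other NM libraries in 32 (19.2% of the 17077 genes), a count that leaving out NM3 cannot lower. NM3 was the lowest library for 32 of the 35, and the median over the list stood 0.72 below the 5-library mean in NM3, 0.05 and 0.11 below it in NM1 and NM2, and 0.50 and 0.48 above it in HM2 and HM3.

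Hmmr, a receptor of hyaluronan that binds the spindle, had the smallest p of the mitosis genes and stood at 50.6, 39.8 and 24.2 CPM in NM1, NM2 and NM3 and at 80.1 and 81.6 CPM in HM2 and HM3 (1.08 ± 0.28, adjusted p = 0.152, edgeR quasi-likelihood). Cenpe, a kinesin of the kinetochore, stood at 54.1, 72.2 and 36.6 CPM in NM1, NM2 and NM3 and at 95.9 and 132 CPM in HM2 and HM3 (1.07 ± 0.29, adjusted p = 0.180), and Kif2c, which takes apart microtubule ends, at 21.2, 20.8 and 13.2 CPM in NM1, NM2 and NM3 and at 37.3 and 32.8 CPM in HM2 and HM3 (0.93 ± 0.25, adjusted p = 0.180). In all 3 genes NM3 was the lowest, and the other NM libraries were below both HM libraries too. Of 28 DNA replication genes none passed, and 27 had a value above 0 (47.1% of all genes tested). In 16 both HM libraries lay above all NM libraries (10.6% of all genes tested), and the median was 0.53. Without NM3 it was 0.36, with 25 of 28 above 0 (51.1% of all genes there). An unadjusted p under 0.05 with a value above 0 was found for 10 of the 28 (3.34% of all genes tested). Without NM3 this held for 4 (4.03% of all genes there). NM3 was the lowest library for 20 of the 28. Rrm2, a subunit of ribonucleotide reductase, stood at 75.1, 66.7 and 50.1 CPM in NM1, NM2 and NM3 and at 124 and 118 CPM in HM2 and HM3 (0.92 ± 0.27, adjusted p = 0.247), and Pole, the catalytic chain of a replicative polymerase, at 21.9, 37.3 and 21.9 CPM in NM1, NM2 and NM3 and at 42.0 and 51.6 CPM in HM2 and HM3 (0.79 ± 0.27, adjusted p = 0.422).

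**Figure D3:**
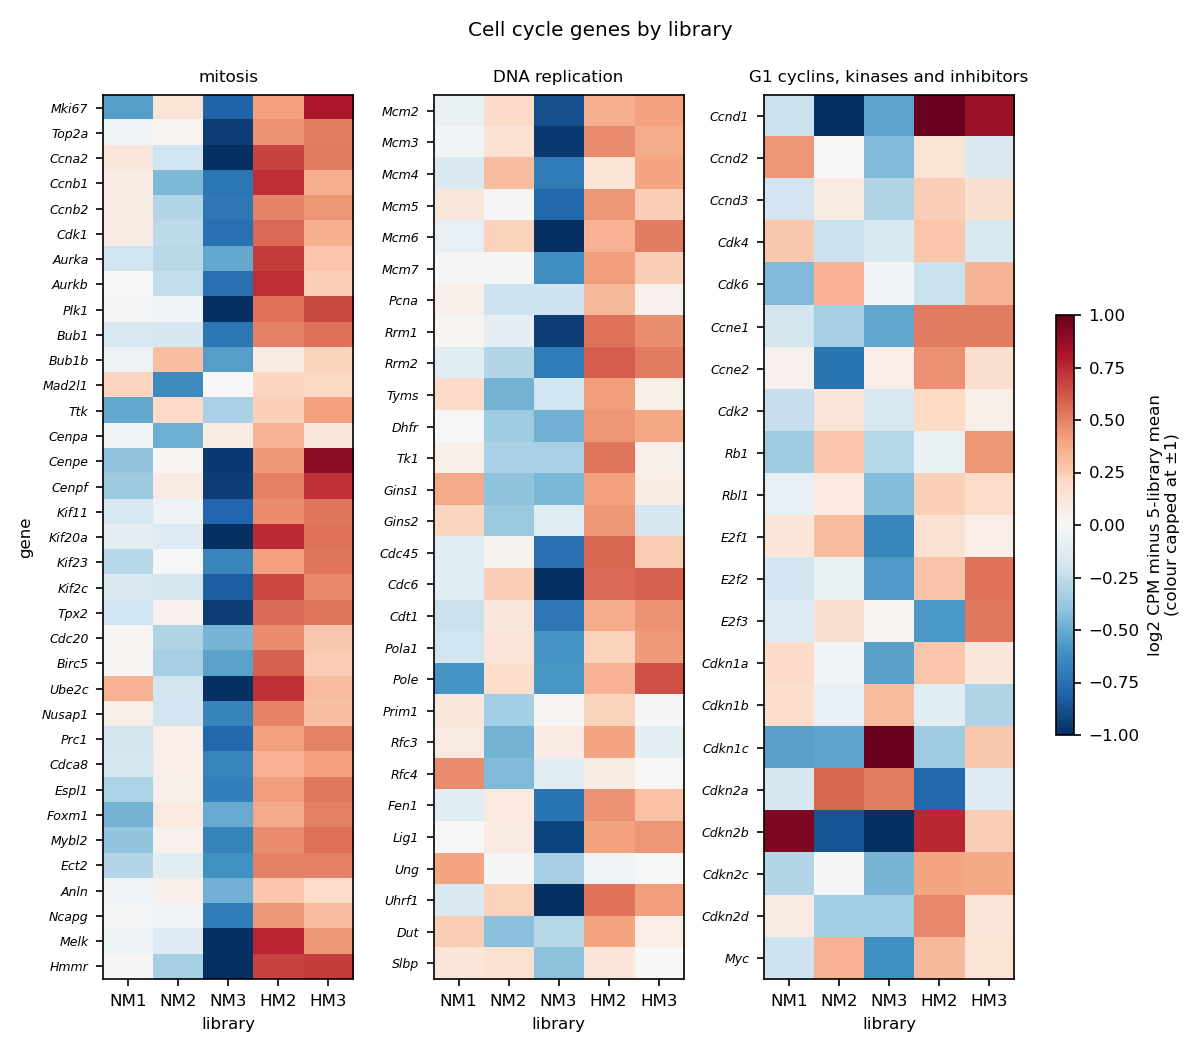
Log2 CPM of each mitosis, DNA replication and G1 gene (rows) in each library (columns), as the difference from the mean of the 5 libraries, with colours capped at 1. In the mitosis panel HM2 and HM3 are red and NM3 is the darkest blue column, being the lowest library for 32 of 35 genes; the G1 panel is mixed.

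The promoters of the 2 mitosis genes with the smallest p are shown because nearly all genes of this list had higher values in both HM libraries and many of their promoters share the CCAAT box, to which the factor NF-Y binds. Capitals mark CCAAT on either strand (ATTGG where it lies on the other one) in the 250 bases before the RefSeq start (GRCm38.p6). The windows are chr11:40733438-40733687 on the minus strand for Hmmr and chr3:135212313-135212562 on the plus strand for Cenpe.
Hmmr: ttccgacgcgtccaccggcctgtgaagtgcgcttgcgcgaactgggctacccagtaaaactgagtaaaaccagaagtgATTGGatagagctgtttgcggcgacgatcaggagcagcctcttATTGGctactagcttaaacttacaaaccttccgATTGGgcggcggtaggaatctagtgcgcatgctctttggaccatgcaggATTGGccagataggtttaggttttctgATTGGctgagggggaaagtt
Cenpe: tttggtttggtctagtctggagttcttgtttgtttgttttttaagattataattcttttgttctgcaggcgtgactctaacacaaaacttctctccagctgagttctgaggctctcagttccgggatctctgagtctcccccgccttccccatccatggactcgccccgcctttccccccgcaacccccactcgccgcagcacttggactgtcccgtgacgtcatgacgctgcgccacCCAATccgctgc
Hmmr held CCAAT 5 times, its first base 172, 129, 96, 47 and 20 bases before the start, and Cenpe held it once, 12 bases before. Of 30 promoters found for the 35 mitosis genes 23 held at least 1 CCAAT (76.7%), and 14 of 23 promoters of DNA replication genes did (60.9%), against 34.5% of the 27025 genes with a promoter. TTTGAA, the CHR element of late cell cycle promoters, stood in 11 of the 30 mitosis promoters (36.7%) and in 16.3% of all, both strands counted. These shares describe the gene lists and not the libraries.

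**Figure D4:**
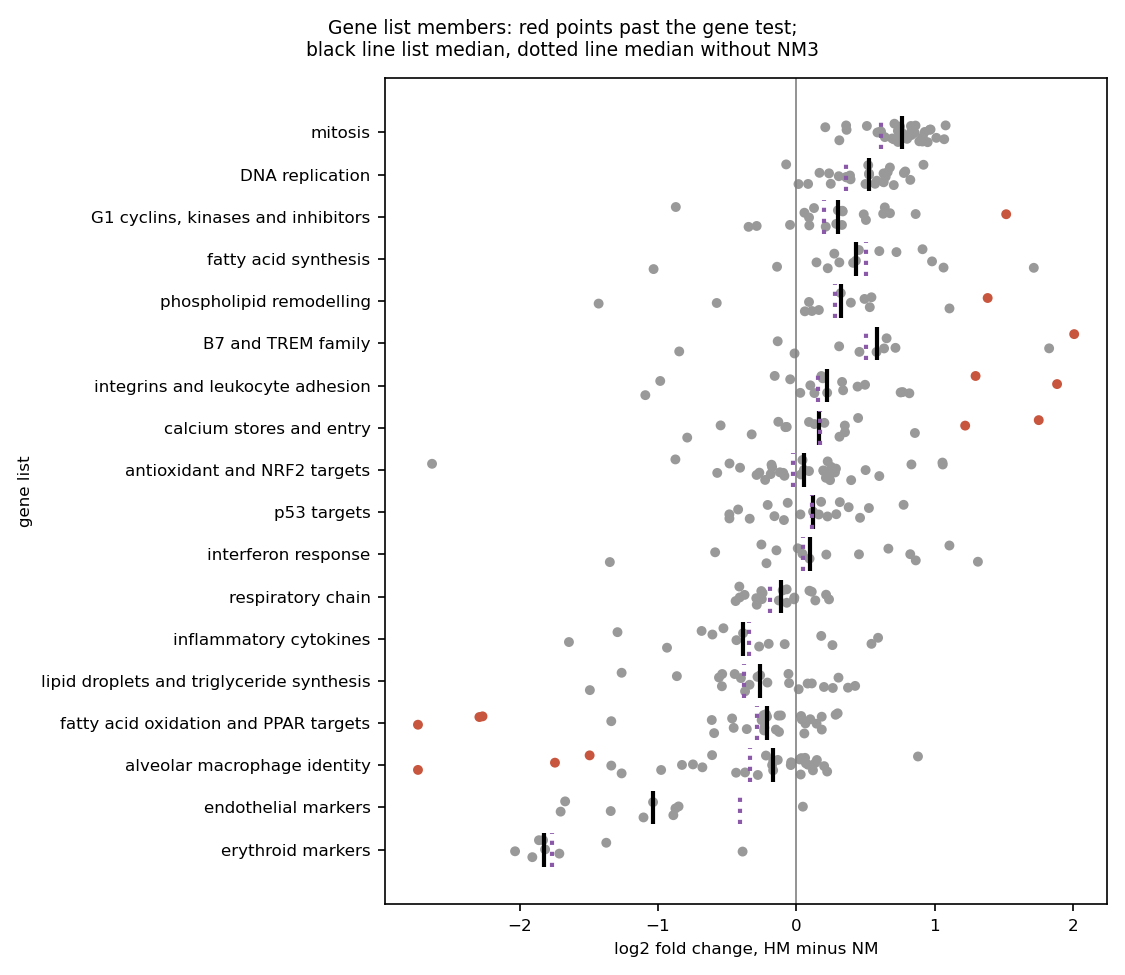
Log2 fold change (HM minus NM, x axis) of the tested members of 18 gene lists (y axis); red points passed the gene test, black lines are list medians and dotted lines medians without NM3. All 35 mitosis genes lie right of 0 with a median of 0.76, while the endothelial median moves from -1.03 to -0.41 without NM3.

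The lists of antioxidant genes, p53 targets, NADPH oxidase, the respiratory chain, lysosomes and glycolysis held no gene past the test. No antioxidant gene or NRF2 target of 33 passed, with a median of 0.06 and 19 above 0. Gpx3, a secreted glutathione peroxidase, stood at 6.73, 5.90 and 4.43 CPM in NM1, NM2 and NM3 and at 14.4 and 9.32 CPM in HM2 and HM3 (1.06 ± 0.29, adjusted p = 0.188, edgeR quasi-likelihood), and Prdx4, a peroxiredoxin, had 0.83 ± 0.29 with overlapping groups. None of 19 p53 targets passed (median 0.12), Phlda3 coming nearest at 16.1, 16.8 and 12.1 CPM in NM1, NM2 and NM3 and 27.1 and 24.3 CPM in HM2 and HM3 (0.78 ± 0.24, adjusted p = 0.299). None of 7 NADPH oxidase genes (median 0.02), 20 respiratory chain genes (-0.11), 20 lysosome genes (-0.11) and 22 genes of glycolysis and HIF targets (0.14) passed. Without NM3 the median was -0.19 for the respiratory chain, 0.09 for glycolysis and -0.25 for lysosome genes, of which 13 then had both HM libraries below both other NM libraries (15.3% of all genes), against 0 with NM3. A p that misses the threshold does not show that a gene did not change: for Gpx3 the standard error was 0.29 on the log2 scale.

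In the complement list 1 of 14 genes rose (Itgam) and 1 fell (Cfb), with a median of 0.38 and 0.19 without NM3. No gene of inflammatory cytokines, the interferon response, MHC class II, alternative activation and lung repair, or scavenger and dying-cell receptors passed. Inflammatory cytokine genes had a median of -0.38, with 4 of 15 above 0. In 4 both HM libraries lay below all NM libraries (8.54% of all genes tested). Cxcl2, a neutrophil chemokine, stood at 10.4, 8.53 and 6.07 CPM in NM1, NM2 and NM3 and at 3.55 and 3.25 CPM in HM2 and HM3 (-1.29 ± 0.34, adjusted p = 0.159, edgeR quasi-likelihood), and Il18 at 209, 137 and 213 CPM in NM1, NM2 and NM3 and at 112 and 82.7 CPM in HM2 and HM3 (-0.93 ± 0.31, adjusted p = 0.370). The HM libraries were the lowest for both. Medians were 0.10 for 15 interferon response genes, 0.28 for 10 MHC class II genes, 0.10 for 15 genes of alternative activation and lung repair and 0.09 for 15 scavenger and dying-cell receptor genes. Spp1, osteopontin, stood at 339, 228 and 185 CPM in NM1, NM2 and NM3 and at 524 and 526 CPM in HM2 and HM3 (1.07 ± 0.32, adjusted p = 0.256), and fibronectin, Fn1, had 1.04 ± 0.36 (adjusted p = 0.450). Of immediate early genes, which rise when tissue is dissociated, none of 14 passed (median -0.16). Among 17 junction and polarity genes Patj fell and none rose, and among 15 actin adaptors Baiap2 rose and none fell, with medians of -0.24 and 0.07. Without NM3 the median changed sign for the antioxidant (-0.03), NADPH oxidase (-0.10), scavenger receptor (-0.03), junction (0.02) and actin adaptor (-0.08) lists. It was 0.05 for interferon response, 0.04 for repair, -0.08 for immediate early, 0.20 for matrix protease and -0.04 for eicosanoid genes, each more than 1.5 times away from the value with NM3.

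Transcripts of other lung and blood cells were present in every library at levels that differed between libraries. No member of these marker lists passed the test. Summed erythroid markers, mostly globin, stood at 1173, 92.7 and 579 CPM in NM1, NM2 and NM3 and at 52.3 and 291 CPM in HM2 and HM3, with a list median of -1.82 and groups that overlapped. Endothelial markers summed to 115 to 166 CPM in NM and 99.6 and 112 CPM in HM libraries, with a median of -1.03 that was -0.41 without NM3. Vwf alone made up 66.7 to 95.2 CPM of the sum in NM and 65.2 and 92.6 CPM in HM libraries. Mesenchyme markers summed to 34.7 to 102 CPM in NM and 23.3 and 42.2 CPM in HM libraries, with a median of -1.08, and -0.58 without NM3. Interstitial macrophage markers had a median of 0.82 over 7 tested members (19.2 to 42.5 CPM summed in NM, 42.4 and 56.7 CPM in HM libraries). Epithelial markers had one of 0.30 (0.59 without NM3, sums of 49.6 to 110 CPM in NM and 87.3 and 159 CPM in HM libraries). The median of dendritic cell markers was 0.11 (0.56 without NM3), that of B cell markers -0.43 (-0.07 without NM3) and that of T and NK cell markers 0.22 (0.55 without NM3). Of eosinophil, basophil and mast cell markers 3 were tested, with a median of -0.68 that was 0.14 without NM3. The -0.68 was the value of Siglecf, which was -0.74 without NM3, where Gata2 had 0.14 and Kit 1.51. The sum was 302 to 346 CPM in NM libraries and 212 and 195 CPM in HM2 and HM3. Siglecf, which alveolar macrophages carry too, took most of it. In sorted bulk RNA, fewer cells of a type and less RNA per cell cannot be told apart.

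Some of the 34 calls concern genes whose reads may be shared. Entpd4, a nucleotide hydrolase of the Golgi, stood at 4.37, 9.14 and 8.10 CPM in NM1, NM2 and NM3 and at 0.802 and 2.15 CPM in HM2 and HM3 (-2.28 ± 0.46, adjusted p = 0.0259, edgeR quasi-likelihood). Its near-identical copy Entpd4b went the other way, with 105, 12 and 91 counts in NM1 to NM3 and 275 and 307 in HM2 and HM3. The 2 genes summed to 9.76, 9.60 and 13.1 CPM in NM libraries, and both HM libraries lay within that range (11.3 CPM in HM2). Zfp968, a zinc finger gene of a family with many copies (-1.82 ± 0.33), and Gm20390, a predicted gene (-1.63 ± 0.31) that overlaps Nme1 and Nme2, also fell. Of 3 identifiers without a symbol that fell, ENSMUSG00000119012 had 170, 143 and 290 counts in NM1 to NM3 and ENSMUSG00000119730 had 162, 164 and 72, and both had 0 in HM2 and HM3. Against the floor of 3 counts per library they were at least 90.8-fold and 56.0-fold lower. ENSMUSG00000119012 also had 0 counts in all 3 normoxia female libraries and in 2 of 3 hyperoxia female libraries, with 350 in HF3, and ENSMUSG00000119730 had 125, 0 and 0 in NF1 to NF3 and 112, 128 and 0 in HF1 to HF3. The third, ENSMUSG00000119132, stood at 16.2, 13.1 and 26.0 CPM in NM1, NM2 and NM3 and at 8.13 and 4.31 CPM in HM2 and HM3 (-1.57 ± 0.33).

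The same genes were read in females, 3 hyperoxia (HF) against 3 normoxia (NF) libraries of the same age and strain, in a fit of all 11 libraries. Of the 34 genes, 30 had a log2 fold change of the same sign in females, against 55.2% of the 19948 genes in that fit. The exceptions were ENSMUSG00000119012, ENSMUSG00000119730, ENSMUSG00000119132 and Entpd4. In females 6 of the 34 passed, against 8 of all 19948 genes (0.0401%, adjusted p under 0.05, edgeR quasi-likelihood). Fabp1 had -2.71 ± 0.36 in males and -2.23 ± 0.30 in females in this fit, Patj -2.12 ± 0.32 and -2.11 ± 0.27, Ecm1 2.10 ± 0.29 and 1.67 ± 0.27, and Ctsk -1.72 ± 0.37 and -1.91 ± 0.32. Ccnd1 had 1.55 ± 0.33 in males and 1.93 ± 0.31 in females. These genes were picked by their change in males, so the values of the sexes are set side by side as a description.

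The difference between the responses of females and males was tested by the interaction term of the same fit. Of 19948 genes 0 passed (0%, adjusted p under 0.05, edgeR quasi-likelihood), and 334 (1.67%) had an unadjusted p under 0.05. DESeq2 called 3, Gm26244, ENSMUSG00000119012 and ENSMUSG00000119730, each with 0 counts in whole groups. Of the 34 genes, 6 had an unadjusted interaction p under 0.05. Atp2b4 was among them, with 1.24 ± 0.31 in males and 0.24 ± 0.28 in females and a difference, female minus male, of -1.01 ± 0.42. Baiap2 was another, with 1.94 ± 0.28 and 1.06 ± 0.25 and a difference of -0.88 ± 0.38. Neither passed after adjustment over all genes. The other 4 were Entpd4, Gm20390, ENSMUSG00000119012 and ENSMUSG00000119132. Mitosis genes had a median of 0.78 in males and 0.55 in females in this fit, and fatty acid oxidation genes and PPAR targets -0.18 and -0.25. Interferon response genes had a median of 0.11 in males and 0.88 in females. No member of these 3 lists passed the interaction test with edgeR or DESeq2.

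**Figure D5:**
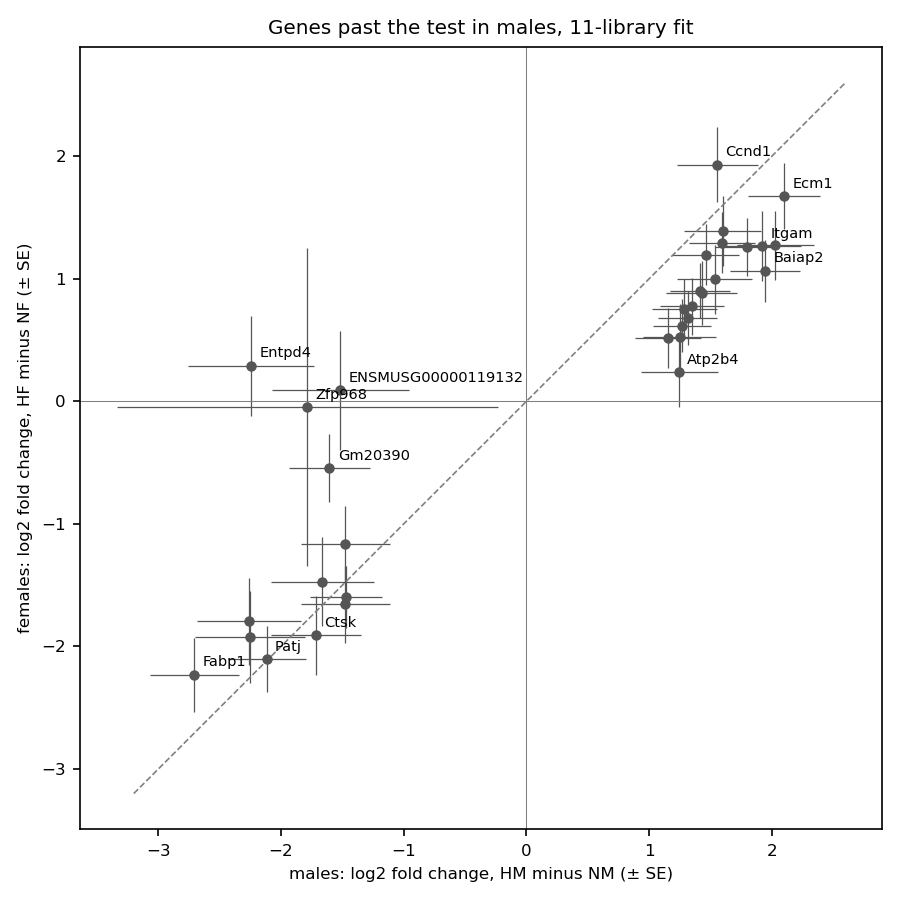
Log2 fold change in males (HM minus NM, x axis) and females (HF minus NF, y axis) of 32 of the 34 genes past the test in males, from the fit of all 11 libraries; bars are standard errors, the dashed line is equality, and the 2 identifiers with no count in HM libraries are left out. Entpd4 and ENSMUSG00000119132 lie above 0 in females and below 0 in males, and the others lie on the same side of 0 in both.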

How the data were processed

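Bulk RNA-seq of sorted alveolar macrophages was deposited by the authors as 1 table of raw counts per gene, whole numbers for 57180 Ensembl identifiers in 11 libraries, of which 5 are analysed here and 6 serve the comparison with females. Libraries were SMART-Seq v4 low-input cDNA per the labels' protocols, and whether duplicate reads were collapsed is not given. The submitters' processing notes name mm39 and Trim Galore 0.6.7, and also list Salmon 1.10.1, STAR 2.7.9, DESeq2 1.42 and R 4.3.2. Neither the tool that made the counts nor the annotation is stated. Symbols were found for 51884 identifiers (90.7%).

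Counts of the 5 libraries were filtered with filterByExpr (minimum count 10), scaled by TMM and tested with edgeR 4.0.16 (robust quasi-likelihood, Benjamini-Hochberg adjusted p under 0.05 over all genes tested) in R 4.3.3. The difference between the sexes was the interaction term in a fit of all 11 libraries. The scripts were tested on simulated data. DESeq2 1.42.0, other scalings and filters, a replicate block and fits without each library were alternatives.

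The text names the first 30 genes past the threshold by p, 10 more in each direction next by p with non-overlapping groups and a mean log2 CPM of at least 1, members of gene lists past the threshold and up to 4 others each by p, and interaction genes past it. Sema4d and ENSMUSG00000119132 lie beyond the 30 and were named after their values were seen. The 41 gene lists and the libraries compared were chosen with earlier results of these data known. Lists are described by counts and medians, with no test. Promoter sequences are RefSeq's on GRCm38.p6, used as sequence only because the counts are on another build.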

Additional observations from a re-analysis of the deposited data

How the results depend on the processing

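The count of 34 genes became 36 with RLE scaling, 36 with a filter of 1 CPM in 2 libraries and 23 without the robust option. It was 10 with upper quartile scaling (2 higher, 8 lower), 61 with no filter on low counts, 60 with DESeq2 and 8 in the fit of all 11 libraries, and ran from 3 (without NM3) to 75 (without NM2) with 1 library left out. Of the 34 genes, 33 passed DESeq2, 32 the fit with no filter, 10 upper quartile scaling and 8 the fit of all 11 libraries. Without an HM library the lone one left was assumed to vary as the NM libraries do. With the replicate number as a block 63 genes passed, 27 of them among the 34. The labels do not say what a number marks. Same-numbered libraries deviated from their group means with correlations of -0.195 (NM2 and HM2) and -0.0947 (NM3 and HM3). The crossed ones had 0.195 (NM2 and HM3) and 0.0947 (NM3 and HM2). With 2 HM libraries their deviations mirror each other, so these correlations cannot settle whether libraries are paired. For the difference between the sexes the count of 0 was 3 with DESeq2, 3 with the replicate block and 0 to 1 with 1 library left out. Of the 41 list medians 3 moved by more than the spread without NM3, 7 without NM2 and 4 with the block. The cause of these shifts was not tested. Depth limits low genes: 3 counts correspond to 0.106 to 0.164 CPM.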
